A study of Mus musculus with 2 samples.

Results

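The genes described here encode regulators of G protein signaling (RGS proteins) and an RGS anchoring protein, measured by RNA-seq in mouse mesenteric arteries, the resistance arteries of the intestine. The members are Rgs1, Rgs2, Rgs3, Rgs4, Rgs5, Rgs10, Rgs12, Rgs16, Rgs19 and Rgs7bp. They are defined by gene symbol and were found through their Ensembl identifiers as 10 rows of the 55573 genes listed. A library was made from arteries in control solution with 5 mM K+, and another from arteries depolarized with 60 mM K+ solution, with 60 min given in the labels for both. Both came from wild type C57BL/6 mice at 10 weeks of age, and each library pooled tissue from 2 mice. In the study's method for perfused arteries, which the labels do not tie to these libraries, every solution held tetrodotoxin, a sodium channel blocker used against nerve activity. There the control tissue was the distal part of the tied-off arteries, cut away before the rest was perfused with high K+. If the libraries were made in this way, segment, perfusion and time in solution cannot be told apart from K+.

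RGS proteins speed up the hydrolysis of GTP on the alpha subunits of heterotrimeric G proteins, which ends the signal that a G protein-coupled receptor has started. In arteries, receptors for angiotensin, noradrenaline, endothelin and vasopressin contract smooth muscle through Gq, and RGS2, RGS4 and RGS5 are known brakes on Gq and Gi signals in the vessel wall. The members differ in build: RGS1, RGS2, RGS3, RGS4, RGS5 and RGS16 belong to the R4 subfamily, most of them small proteins with little beyond the RGS domain, whereas RGS10 and RGS12 belong to the R12 subfamily and RGS19, also named GAIP, to the RZ subfamily. R7BP, the product of Rgs7bp, has no RGS domain and holds complexes of R7 subfamily RGS proteins with the G protein subunit Gbeta5 at the plasma membrane.

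RGS transcripts did not move as a block between the libraries. Rgs16, Rgs1 and Rgs10 were more than 2-fold higher in 60 mM K+, Rgs3 and Rgs5 were higher by less, Rgs4 and Rgs19 were lower, and Rgs2, Rgs7bp and Rgs12 differed after scaling by less than a log2 value of 0.1. With log2(fold-change) computed as 60 mM K+ over 5 mM K+, 3 of 10 members lay above 1, compared with 5.54% of the 14829 genes for which both libraries gave 10 or more reads in sum. Below -1 there were 0 of 10 members, compared with 5.86% of genes. With 1 library per condition, no difference has a replicate check, and no test was run and no p-value is given. The intervals given with these values are exact 95% Clopper-Pearson intervals of the share of a gene's reads in the 60 mM K+ library, and they cover counting error only.

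The control library held 10480918 gene reads and the depolarized library 11289598. TMM scaling in edgeR (trimmed mean of M-values) estimates a scaling factor for each library from the bulk of its genes. After it, the median log2(fold-change) of the compared genes was -0.0047. With total counts alone every value was lower by 0.21, that median was -0.21, and the share of genes above 1 was 4.05% and of genes below -1 was 8.67%. All 10 members passed the minimum of 10 reads, with 109 to 12043 reads in both libraries together. In bulk tissue, fewer cells of a type and less RNA per cell cannot be told apart.

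Of the members, 5 lie on mouse chromosome 1. On NCBIM37 (mm9) in the GENCODE vM1 annotation, Rgs2 spans 145846468 to 145851291 and Rgs1 spans 146091102 to 146096372, both on the minus strand and 239810 bases apart. Rgs16 lies from 155587479 to 155592598 on the plus strand. Rgs5 (171585632 to 171625944, plus strand) and Rgs4 (171671608 to 171677773, minus strand) face each other tail to tail across 45663 bases. The others are Rgs3 on chromosome 4 (62220881 to 62364052), Rgs12 on chromosome 5 (35292094 to 35382293), Rgs10 on chromosome 7 (135517135 to 135562272), Rgs7bp on chromosome 13 (105737233 to 105845010) and Rgs19 on chromosome 2 (181423124 to 181428682). Annotated genes overlap Rgs3, Rgs10 and Rgs12, and each of these 3 overlapping genes had 0 reads in both libraries.

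Because the study follows depolarization to the transcription factor CREB, the promoters were searched for its site, the cAMP response element (CRE). The promoter sequences of RefSeq (GRCm38.p6), which run from 250 bases before to 50 bases after a transcription start, held 9 of the 10 members in 13 windows; Rgs1 was not matched. The upstream stretches of 4 members are shown 5′ to 3′ on the strand of the gene, with the short CRE motif TGACG, read on either strand, in capitals, and Rgs5 and Rgs16 hold none. They belong to Rgs2, the most abundant member, to the neighbors Rgs4 and Rgs5, and to Rgs16, which differed most between the libraries. Matched exactly to NCBIM37, they lie at chr1:145851280-145851529 (Rgs2, minus strand), chr1:171677774-171678023 (Rgs4, minus strand), chr1:171585382-171585631 (Rgs5, plus strand) and chr1:155587233-155587482 (Rgs16, plus strand).
Rgs2: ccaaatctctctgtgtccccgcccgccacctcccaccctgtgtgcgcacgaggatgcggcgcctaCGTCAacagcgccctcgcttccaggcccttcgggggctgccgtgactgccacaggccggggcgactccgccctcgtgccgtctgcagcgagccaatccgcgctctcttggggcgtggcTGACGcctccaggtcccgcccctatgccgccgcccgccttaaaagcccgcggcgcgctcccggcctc
Rgs4: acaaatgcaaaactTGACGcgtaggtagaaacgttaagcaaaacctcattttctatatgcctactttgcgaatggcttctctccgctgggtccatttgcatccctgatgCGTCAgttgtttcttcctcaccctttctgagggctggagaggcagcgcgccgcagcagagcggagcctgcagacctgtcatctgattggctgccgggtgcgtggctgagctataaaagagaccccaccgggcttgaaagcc
Rgs5: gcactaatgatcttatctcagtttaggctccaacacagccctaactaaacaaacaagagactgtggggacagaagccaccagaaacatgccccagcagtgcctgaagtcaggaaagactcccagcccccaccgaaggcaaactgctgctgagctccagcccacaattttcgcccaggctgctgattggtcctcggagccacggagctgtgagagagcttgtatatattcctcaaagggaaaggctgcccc
Rgs16: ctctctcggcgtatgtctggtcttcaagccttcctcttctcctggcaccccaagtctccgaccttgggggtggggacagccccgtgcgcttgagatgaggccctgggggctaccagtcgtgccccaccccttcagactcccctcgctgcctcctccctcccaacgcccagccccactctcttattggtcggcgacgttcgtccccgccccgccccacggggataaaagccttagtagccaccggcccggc

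The full CRE, TGACGTCA, was found in 0 of 9 members and in 2.03% of the 27025 genes with a promoter sequence. The short motif TGACG, which the full site contains, was found on either strand in 4 of 9 members, Rgs2, Rgs4, Rgs12 and Rgs7bp, and in 23.0% of genes. In Rgs2 it begins 67 bases before the start on the strand of the gene and reaches 185 bases before it on the opposite strand, and in Rgs4 these distances are 236 and 141 bases. The AP-1 site TGANTCA was found in 1 member, Rgs12, and in 8.97% of genes, and the CArG box, the site of serum response factor, in 0 members and in 1.81% of genes. Of the members above 1, Rgs16 and Rgs10 could be searched, and 0 of them held the short CRE motif or the AP-1 site in this window. These are matches of letters and not measured binding sites.

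Expression levels of the members spanned a wide range in the same tissue. FPKM, fragments per 1000 bases of gene length and per 1000000 reads counted, allows genes to be compared, and the deposited values were scaled by total counts. In the control library Rgs2 had the highest FPKM of the members, 483, followed by Rgs4 at 237 and Rgs5 at 112. Rgs2 ranked 180 among 19735 genes with reads in that library, and 258 among 18995 genes in the depolarized library. These 3 genes together held 87.2% of the summed FPKM of the 10 members in 5 mM K+ and 82.7% in 60 mM K+. The next levels in 5 mM K+ were those of Rgs7bp at 47.0, Rgs3 at 36.4, Rgs19 at 13.7 and Rgs1 at 9.64. Rgs10 at 7.10, Rgs12 at 6.71 and Rgs16 at 1.22 were lowest. The levels of Rgs1 and Rgs10, with an FPKM ratio of 1.36 (95% counting interval 0.951 to 1.99), and those of Rgs10 and Rgs12, with a ratio of 1.06 (0.711 to 1.54), did not differ beyond counting error in 5 mM K+. For Rgs1 and Rgs10 this depended on the gene length used: with reads per 1000 bases of all annotated exons their ratio was 2.67 (1.87 to 3.91), and that of Rgs10 and Rgs12 was 1.25 (0.841 to 1.82).

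In 60 mM K+ the order was Rgs2 at 401, Rgs4 at 129, Rgs5 at 119, Rgs3 at 46.8, Rgs7bp at 40.5, Rgs1 at 18.2, Rgs10 at 13.4, Rgs19 at 8.46, Rgs12 at 5.62 and Rgs16 at 3.03. Thus Rgs3 stood above Rgs7bp, and Rgs1 and Rgs10 stood above Rgs19, the reverse of their order in the control library. The lead of Rgs4 over Rgs5 was small by FPKM, with a ratio of 1.08 (1.03 to 1.14). It was wider with reads per 1000 bases of all annotated exons, at 979 for Rgs4 and 712 for Rgs5. Gene length matters to such an order. The lengths behind the deposited FPKM were, for example, 1256 bases for Rgs2 and 484 bases for Rgs10, whereas all annotated exons of these genes together hold 3627 and 1711 bases. With reads per 1000 bases of all annotated exons the control order was the same, and in 60 mM K+ Rgs7bp and Rgs1 stood above Rgs3 and Rgs16 above Rgs12.

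**Figure D1:**
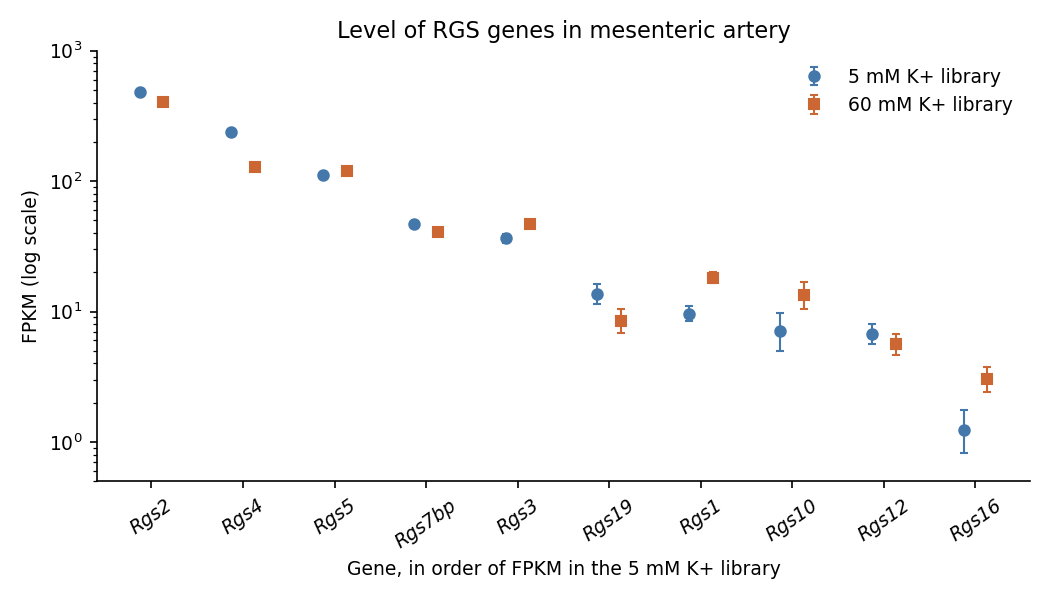
FPKM of each RGS gene (y axis, log scale) in the 5 mM K+ library (circles) and the 60 mM K+ library (squares), with genes along the x axis in order of control FPKM. Bars are 95% Poisson counting intervals and are smaller than the symbol for abundant genes; levels run from 483 for Rgs2 to 1.22 for Rgs16 in 5 mM K+, and Rgs4 comes close to Rgs5 in 60 mM K+.

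Rgs2 encodes a Gq-selective RGS protein whose loss in mice raises blood pressure. Reads numbered 6356 for control and 5687 for depolarized arteries, and the log2(fold-change) was -0.06 (-0.11 to -0.01), so that the most abundant member was nearly level between the libraries. With total counts the value was -0.27.

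Rgs4 and Rgs5 went apart. RGS4 acts on Gq and Gi, and RGS5 is abundant in arterial smooth muscle and pericytes. Rgs4 went from 5173 reads under control conditions to 3032 under depolarization, which gave a log2(fold-change) of -0.67 (-0.73 to -0.60). It was the largest decrease among the members, and 11.1% of compared genes had a lower value. For Rgs5, 2837 control reads stood against 3240 after depolarization, giving a log2(fold-change) of 0.29 (0.22 to 0.37). With total counts Rgs5 was at 0.08 (0.01 to 0.16) and Rgs4 at -0.88, so that both kept their direction. The FPKM of Rgs4 was 2.11 times that of Rgs5 in control and 1.08 times in depolarized arteries.

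Rgs16, whose product also acts on Gi and Gq and which is known as an inducible gene, had the largest increase of the members and the fewest reads in 5 mM K+. Just 30 reads fell on it in control arteries and 80 in depolarized arteries, for a log2(fold-change) of 1.52 (0.89 to 2.17). Of the compared genes, 2.41% had a higher value. This member alone stayed above 1 with total counts, at 1.31 (0.69 to 1.96).

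Rgs1, best known from B cells and other leukocytes, where it dampens responses to chemokines, was read 215 times in the control and 438 times after depolarization. This gave it a log2(fold-change) of 1.13 (0.89 to 1.37), and 4.46% of compared genes were higher. Markers of leukocytes were measured beside it, and their part in the difference was not tested. The 10 macrophage markers had a median log2(fold-change) of -0.01, a range of -0.78 to 0.93 and a summed FPKM of 49.2 in 5 mM K+ and 43.0 in 60 mM K+. The 9 lymphocyte markers summed to 9 control reads and 10 reads after depolarization, with Cd3g and Nkg7 at 0 in both, too few to compare. Rgs3, the larger R4 member with several transcript forms, stood at 761 and 1055 reads and at a log2(fold-change) of 0.57 (0.44 to 0.71).

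Outside the R4 subfamily, Rgs10 encodes a small Gi-directed protein that is prominent in myeloid cells. Its reads numbered 36 under control conditions and 73 under depolarization, for a log2(fold-change) of 1.12 with a wide interval of 0.53 to 1.74. With total counts Rgs1 was at 0.92 and Rgs10 at 0.91, below the limit of 1, and the intervals of Rgs1, Rgs10 and Rgs16 all reached below 1 with TMM. Rgs12, which encodes a large protein with a PDZ domain, stood at 133 and 120 reads and at a log2(fold-change) of -0.05 (-0.42 to 0.32), which was not distinguishable from 0 at this depth. Rgs19, whose product acts on Gi subunits, was read 137 times in control and 91 times in depolarized arteries, for a log2(fold-change) of -0.49 (-0.89 to -0.10).

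Rgs7bp was nearly level at 3489 control reads and 3235 after depolarization, with a log2(fold-change) of -0.01 (-0.08 to 0.06). With total counts it was -0.22 (-0.29 to -0.15), so that whether its interval held 0 depended on the scaling. The genes of the partners of R7BP had lower FPKM, and they are named here after their values were seen. Of the R7 subfamily genes, Rgs6 had 234 and 196 reads, Rgs11 had 128 and 83 reads, Rgs7 had 10 reads in each library, and Rgs9 had 4 and 1 reads. Gnb5, the gene of Gbeta5, was read 159 times under control conditions and 191 times under depolarization. Their FPKM in 5 mM K+ was 14.1 for Rgs6, 8.39 for Rgs11 and 14.4 for Gnb5, all below the 47.0 of Rgs7bp.

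**Figure D2:**
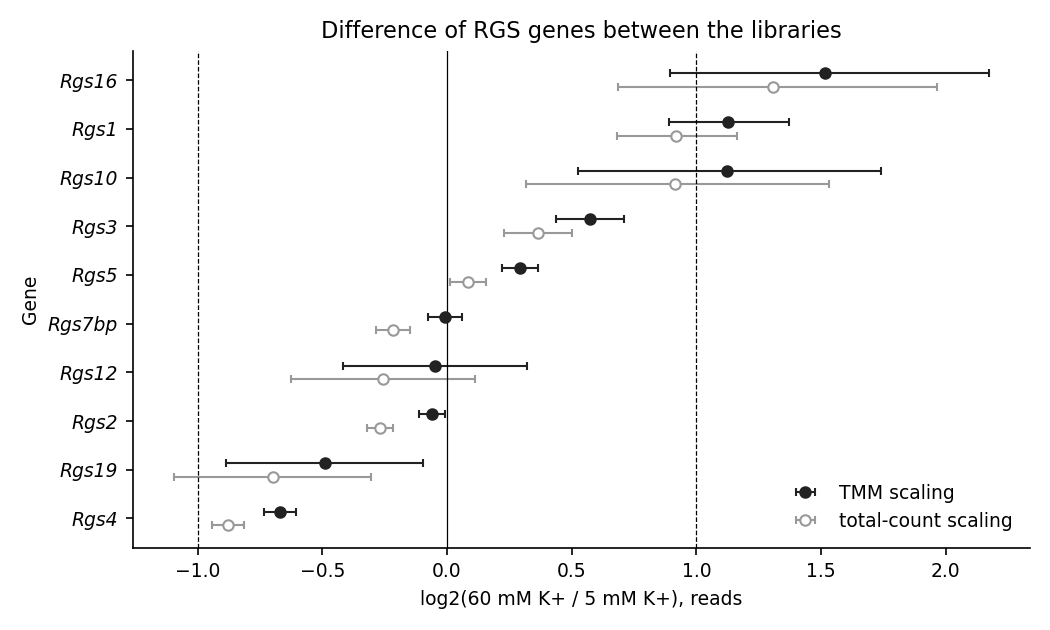
log2(fold-change) of reads in 60 mM K+ over 5 mM K+ (x axis) for each RGS gene (y axis), with TMM scaling (filled) and total-count scaling (open). Bars are 95% counting intervals and dashed lines mark -1 and 1; Rgs16, Rgs1 and Rgs10 lie above 1 with TMM, and Rgs16 alone lies above 1 with total counts.

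Counted by interval, 5 of 10 members (Rgs1, Rgs3, Rgs5, Rgs10 and Rgs16) had an interval wholly above 0, compared with 25.0% of compared genes. An interval wholly below 0 was found for 3 of 10 (Rgs2, Rgs4 and Rgs19), compared with 20.3%. With total counts 5 of 10 members lay above 0, compared with 13.6% of genes, and 4 of 10 below 0, with Rgs7bp added, compared with 38.4%. Deeply read genes have narrow intervals, so that these shares also depend on depth. The median log2(fold-change) of the members was 0.14 with TMM and -0.07 with total counts, and it changed sign with the scaling. Summed over the 10 members, reads made up 0.183% of control and 0.151% of depolarized reads, and their summed FPKM was 954 and 785. Both sums are scaled by total counts, with which every log2(fold-change) is lower by 0.21 than with TMM.

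The ratio of 2 genes within a library does not depend on library scaling. Relative to Rgs5, the 9 other members were compared as the ratio of read ratios between the libraries, and for 8 of 9 the interval did not reach 0 on the log2 scale. The same held for 54.4% of the 14828 compared genes other than Rgs5 and for 64.5% of the 10589 with at least 109 reads, the number of the least read member. All of these ratios share Rgs5, whose own log2(fold-change) was above 0, and 9.79% of genes lay above 0 and 44.6% below 0 relative to it, compared with 4 and 4 of the 9 members. Lower relative to Rgs5 were Rgs4, at a log2 value of -0.96 (-1.06 to -0.86), Rgs19 at -0.78 (-1.19 to -0.38), Rgs2 at -0.35 (-0.44 to -0.26) and Rgs7bp at -0.30 (-0.40 to -0.20). Rgs16 was higher by 1.22 (0.60 to 1.88), Rgs1 by 0.83 (0.58 to 1.09), Rgs10 by 0.83 (0.23 to 1.45) and Rgs3 by 0.28 (0.12 to 0.43). For Rgs12 the value was -0.34 (-0.72 to 0.03).

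**Figure D3:**
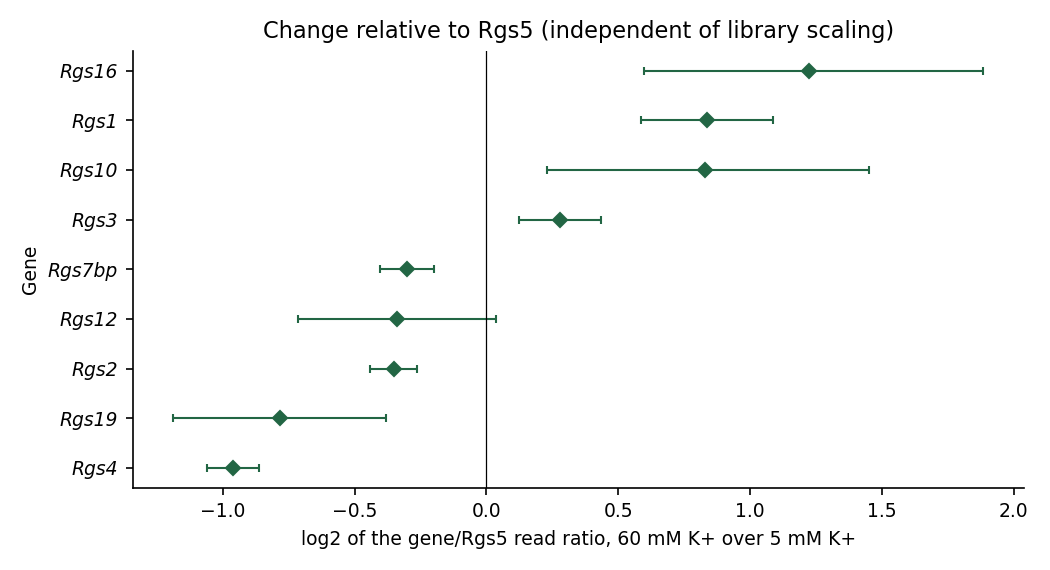
Change of each RGS gene relative to Rgs5 between 5 mM K+ and 60 mM K+ (x axis, log2 of the ratio of read ratios; y axis, genes), with 95% exact counting intervals as bars. Rgs16, Rgs1, Rgs10 and Rgs3 lie to the right of 0, and Rgs4 lies farthest to the left at -0.96.

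Other genes of the same pathway were counted in lists. Of 17 matched other RGS and RGS-domain genes, 9 had at least 10 reads. Members and lists were chosen with earlier results of these data known, so that their contrast is description only. Of the 9 genes, 0 passed a log2(fold-change) of 1 in either direction, compared with 5.54% of genes above 1 and 5.86% below -1. An interval above 0 was found for 0 of the 9 and one below 0 for 3, compared with 25.0% and 20.3% of genes. Their median was -0.15. The highest FPKM in 5 mM K+ among them was 21.8 for Axin1, a scaffold of Wnt signaling with an RGS-like domain, with a log2(fold-change) of -0.20. Rgs8, Rgs13, Rgs20 and Rgs22 had 0 reads in both libraries, which allows up to 3 counts or 0.266 CPM (reads per 1000000) for control and 0.286 CPM for depolarized arteries. The 10 members held 91.8% of the summed FPKM of all 27 matched genes in 5 mM K+ and 92.6% in 60 mM K+.

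Among the G protein alpha subunits, some of which are substrates of RGS proteins, 12 of 13 genes had at least 10 reads. In either direction 0 of 12 passed 1, compared with 5.54% of genes above 1 and 5.86% below -1. The median log2(fold-change) of the alpha subunits was 0.18 with TMM and -0.03 with total counts. Gnai2, the main Gi subunit here with an FPKM of 467 and 501, had a log2(fold-change) of 0.31 (0.25 to 0.37). Of the beta and gamma subunits, 12 of 17 were compared, with Gng4 higher (9 and 52 reads, at 2.63 with an interval of 1.60 to 3.84) and Gng2 lower (40 and 18 reads, -1.05 with an interval of -1.94 to -0.21). The most abundant of them, Gng12, was at -0.11.

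Of 16 effector genes, 14 were compared and 0 passed 1 in either direction, compared with 5.54% of genes above 1 and 5.86% below -1. Intervals lay wholly above 0 for 3 and wholly below 0 for 8, compared with 25.0% and 20.3% of genes, and the median was -0.19. Adcy5, an adenylyl cyclase and the most abundant effector gene listed, was measured with an FPKM of 369 and 408. Its log2(fold-change) was 0.35 (0.32 to 0.39) with TMM and 0.15 with total counts. Of 23 receptor genes for vasoactive ligands, 22 were compared. Among these, 2 lay above 1 and 2 below -1, compared with 5.54% and 5.86% of genes. An interval wholly above 0 was found for 6 and one wholly below 0 for 10, compared with 25.0% and 20.3% of genes. The median of the receptors was -0.09. Avpr1a, the vasopressin receptor of smooth muscle, went from 1287 control reads to 2626 after depolarization, for a log2(fold-change) of 1.13 (1.03 to 1.23), and P2ry2, a receptor for ATP and UTP, was at 1.07. With total counts these were 0.92 and 0.86, below the limit. Agtr1a, an angiotensin receptor, was at -1.25 (-2.40 to -0.20) with 28 and 11 reads. Adra1b, an adrenergic receptor, was at -2.36 with 11 and 2 reads and a wide interval of -5.57 to -0.16. The receptor with the highest FPKM, S1pr3, was at 0.55 (0.49 to 0.61). Of 8 genes of receptor kinases and arrestins, 7 were compared and 0 passed 1 in either direction, with Adrbk1 (Grk2) at 0.32.

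Markers of the cell types in the wall were present in both libraries. The 8 smooth muscle markers had a summed FPKM of 20458 and 19987 and a median log2(fold-change) of 0.13, with a range of -0.16 to 0.40. The 7 pericyte markers had a median of -0.06 and a range of -0.27 to 0.61. Past 1 in either direction were 0 of 7, compared with 5.54% of genes above 1 and 5.86% below -1. An interval above 0 was found for 7 of 8 endothelial and 6 of 8 smooth muscle markers, compared with 25.0% of genes. The endothelial exception, Kdr, was at -1.10. The endothelial markers had a median of 0.36 with TMM and 0.15 with total counts. Their summed FPKM was 1748 in 5 mM K+ and 2045 in 60 mM K+. Fibroblast markers had a median of -0.18, nerve and Schwann cell markers a median of -0.27, and 5 adipocyte markers a median of -0.90 (range -2.39 to 3.27). The 6 pancreas markers summed to 124 control reads and 379 after depolarization, with Prss1 and Amy2a5 at 0 in both. The 4 with at least 10 reads had a median of 3.45 with TMM and 3.25 with total counts. Their range with TMM was 0.60 to 5.03, and 3 of 4 lay above 1, compared with 5.54% of genes. With TMM the medians of the smooth muscle, endothelial and pancreas markers were above 0, the direction of Rgs16, Rgs1 and Rgs10. With total counts the smooth muscle median was -0.08. The part of these markers in the differences of Rgs16, Rgs1 and Rgs10 was not tested.

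**Figure D4:**
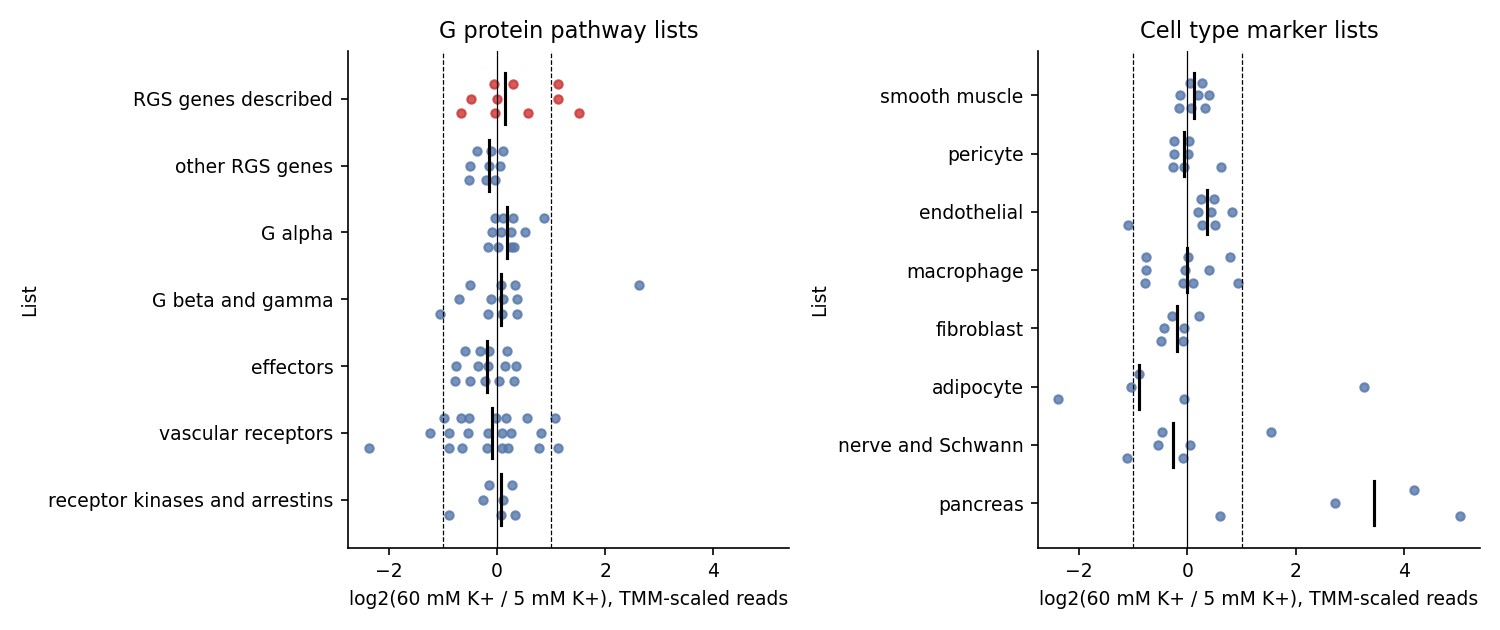
log2(fold-change) with TMM scaling (x axis) of genes with at least 10 reads in the G protein pathway lists (left) and the cell type marker lists (right), with lists on the y axis, 1 point per gene, medians as black bars and dashed lines at -1 and 1. The RGS genes described here (red) run from -0.67 to 1.52, the other RGS genes from -0.52 to 0.10, and no lymphocyte marker had enough reads to be drawn.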

How the data were processed

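RNA from 2 mouse mesenteric artery libraries, 1 per K+ condition and each pooled from 2 mice, was sequenced commercially after poly(A) selection. TopHat2 alignment to mm9 was done by the authors, whose deposited tables hold raw counts and FPKM values for each gene. The submitters' processing notes also list TopHat2 2.0.12, HTSeq 0.6.1 and edgeR 3.0.8; the annotation is not given in the sources used here, and the library kit does not mark strand. Gene symbols and positions came from GENCODE vM1, which named 32601 of 55573 listed genes.

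TMM, upper-quartile and median-of-ratios factors were computed with edgeR 4.0.16 and DESeq2 1.42.0 in R 4.3.3. A count of 0 was set to 0.5 reads. The study tested its libraries with DEGSeq; no test was run here, because edgeR's quasi-likelihood test needs replicates. Intervals are 95% Clopper-Pearson intervals, conditional odds ratio intervals and Poisson intervals (scipy 1.17.1), and they cover counting error only. Of these kinds, only the Clopper-Pearson intervals were checked on simulated data. Genes were compared where the sum of both libraries reached 10 reads. The members and lists were chosen with earlier results of these data known. Named pathway genes are those past a log2 value of 1 with at least 10 reads and the gene with the highest control FPKM of each list. Alternatives were the other scalings, FPKM with pseudocounts of 0.1 and 1, no minimum or 50 reads, a 1.5-fold limit, 99% intervals and motifs on the strand of the gene only. Figures were drawn with matplotlib 3.10.9.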

Additional observations from a re-analysis of the deposited data

How the results depend on the processing

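With total counts and with FPKM and a pseudocount of 0.1, 1 member (Rgs16) was above a log2(fold-change) of 1 instead of 3, and with a pseudocount of 1 there were 0. The median of the members was -0.066 with total counts, -0.066 with a pseudocount of 0.1 and -0.064 with a pseudocount of 1, compared with 0.14 with TMM. By construction, total counts and FPKM lower every value by 0.21 and a pseudocount draws low genes toward 0. With a 1.5-fold limit 1 member (Rgs4) was lower instead of 0. With 99% intervals 1 member (Rgs4) had an interval below 0 instead of 3, compared with 14.1% of genes, and 5 members had one above 0, compared with 20.5%. Upper-quartile and median-of-ratios scaling, no minimum and a minimum of 50 reads kept each of these counts as it was with TMM and 10 reads. The share of all compared genes above 1 and below -1 was 5.54% and 5.86% with TMM and 10 reads, 4.05% and 8.67% with total counts, 14.4% and 11.7% with no minimum, 3.46% and 1.77% with 50 reads, 11.9% and 13.1% past 1.5-fold, 3.35% and 6.99% with a pseudocount of 0.1, and 1.62% and 1.30% with a pseudocount of 1. The short CRE motif was found in 4 members on either strand, compared with 23.0% of genes. On the strand of the gene alone it was found in 4 members, compared with 13.9% of genes. Of 110 values of 22 single genes under the scaling and FPKM alternatives, 71 stayed within their counting interval and 39 moved below it, and 0 of the genes whose interval excluded 0 changed sign. The ratios of neighboring levels over all annotated exons and the shares of genes relative to Rgs5 were added after seeing the data. No paired analysis was possible because there was a single library for either solution. The depth limits Rgs16 and Rgs10 most, with 110 and 109 reads in both libraries together.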
